A study of Drosophila melanogaster with 3 samples.

Results

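The regions described here were the peaks of the transcription factor Pointed, also called sites below, that lay deep inside introns. Whether Pointed itself contacts the DNA at each peak was not tested. They were 752 of the 3646 peaks in the optimal list of a chromatin immunoprecipitation sequencing (ChIP-seq) experiment, or 20.6% of it. A peak was counted as deep intronic when its summit, the base of highest signal, fell within an annotated gene, in no annotated exon, and more than 2000 bp from the nearest annotated transcription start site (TSS). Within the optimal list the choice used position alone, but that list itself holds the strongest peaks of a longer pooled list. Whole embryos of Drosophila melanogaster of both sexes, collected over 0 to 24 hours of age, formed 1 group of 3 biological replicates with no second condition. They came from 1 fly line, pnt-MiMIC-GFP, in which an eGFP exon inside an intron of pnt makes a Pointed-eGFP fusion from the gene's own locus. The labels describe the precipitation as anti-GFP, although the antibody entry reads pnt, and give sonicated fragments of 200 to 800 bp. Each list mixes all embryonic tissues and stages, so a site used in few cells and a site weakly used in many cannot be told apart. The values available were peak lists, so the read depth of each library is unknown and the number of reads behind a peak cannot be given.

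Pointed belongs to the ETS family, whose DNA-binding domain contacts a GGAA core. It works at the end of the EGF receptor (EGFR) pathway, in which Ras, Raf and the MAP kinase Rolled pass the signal on, and phosphorylation of one Pointed isoform turns on target genes. Yan, the product of aop, is a repressor of the same family that competes for the same sites. In flies, many enhancers of developmental genes lie in introns, often far from the promoter they act on.

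The sequence under the strongest sites is shown for 9 of the 10 deep intronic peaks of highest signal on arms X, 2L, 3L and 3R, and for both deep intronic peaks in pnt itself. Each window holds 50 bp on either side of the summit, read 5′ to 3′ on the plus strand of dm6 from the RefSeq genome, with every GGAA, or TTCC for a core on the other strand, in capitals.
Tlk (chrX:3742177-3742277, plus strand): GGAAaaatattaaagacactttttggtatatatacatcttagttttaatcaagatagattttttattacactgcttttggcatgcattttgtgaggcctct
Raf (chrX:2297682-2297782, plus strand): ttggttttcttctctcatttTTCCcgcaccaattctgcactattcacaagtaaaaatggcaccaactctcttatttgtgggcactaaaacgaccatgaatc
CG32486 (chr3L:3060753-3060853, plus strand): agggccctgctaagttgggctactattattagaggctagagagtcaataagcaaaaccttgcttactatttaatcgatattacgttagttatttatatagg
Gug (chr3L:8458253-8458353, plus strand): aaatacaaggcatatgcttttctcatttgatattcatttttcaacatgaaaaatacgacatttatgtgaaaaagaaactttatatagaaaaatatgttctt
aos (chr3L:16480508-16480608, plus strand): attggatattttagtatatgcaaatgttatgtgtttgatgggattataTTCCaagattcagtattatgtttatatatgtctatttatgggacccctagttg
fz (chr3L:14304017-14304117, plus strand): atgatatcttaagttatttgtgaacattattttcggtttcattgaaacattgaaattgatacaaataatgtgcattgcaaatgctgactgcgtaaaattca
Pak3 (chr3R:16449374-16449474, plus strand): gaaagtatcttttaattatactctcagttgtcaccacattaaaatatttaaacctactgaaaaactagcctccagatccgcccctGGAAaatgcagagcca
ImpL2 (chr3L:4230471-4230571, plus strand): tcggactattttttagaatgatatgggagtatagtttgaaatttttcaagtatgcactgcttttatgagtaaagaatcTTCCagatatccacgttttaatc
CG32264 (chr3L:3785196-3785296, plus strand): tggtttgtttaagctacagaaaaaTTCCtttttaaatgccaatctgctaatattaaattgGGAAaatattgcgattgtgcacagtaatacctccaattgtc
pnt (chr3R:23326469-23326569, plus strand): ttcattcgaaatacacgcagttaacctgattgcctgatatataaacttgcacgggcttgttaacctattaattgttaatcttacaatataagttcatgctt
pnt (chr3R:23300818-23300918, plus strand): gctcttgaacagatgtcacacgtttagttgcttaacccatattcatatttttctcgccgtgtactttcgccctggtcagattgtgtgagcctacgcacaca
Of the 9 strongest windows shown, 6 held a GGAA core and their GC content ran from 22.8% to 39.6%. Neither window in pnt held one. Over all 752 deep intronic peaks, 49.6% of such 101 bp windows held the core. The same was true of 56.3% of 196817 windows tiled across all sequence that meets the positional rule. At optimal peaks within 500 bp of a TSS the share was 50.1%. Mean GC content was 36.4% around deep intronic summits and 40.2% in tiled sequence, and these shares are not adjusted for it. A match of 4 letters is a description of the window and does not mark a bound site.

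The 12 strongest deep intronic peaks included sites in Raf and aos, of the EGFR pathway, and in the Wnt receptor gene fz, beside genes of other or undescribed roles. Signal below is the value the authors gave each peak, in a unit they did not state, and is read only within a list. The highest value, 1085, was in intron 2 of Tlk, which encodes Tousled-like kinase, at chrX:3742056-3742380 and 2330 bp from the nearest TSS. In the lists of replicates 1, 2 and 3 this peak had ranks of 51, 32 and 29 among 30000, 29997 and 30000 peaks. It was thus among the strongest in every replicate.

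The next peak, with a signal of 1079 at chrX:2297550-2297863, was in intron 2 of Raf, the kinase that Ras activates upstream of Pointed. Its ranks were 35, 33 and 46. The peak of CG32486 at chr3L:3060659-3060944 had a signal of 924 and ranks of 50, 49 and 58. These 3 peaks held nearly the same place in every replicate. Gug, which encodes the corepressor Atrophin, held a peak of signal 677 in intron 2 at chr3L:8458154-8458480, with ranks of 117, 111 and 89. The first intron of aos, whose product Argos is the secreted inhibitor that ties up the EGFR ligand Spitz, held a peak of signal 618 at chr3L:16480424-16480696. Its ranks were 125, 124 and 169, close together in all 3 replicates.

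Others of the strongest 12 were less even between replicates. The peak in the first intron of fz, a receptor for Wnt signals and planar polarity, had a signal of 611 at chr3L:14303943-14304187, and its ranks were 161, 66 and 386. A peak of signal 597 in the intron of Pak3, a p21-activated kinase, ranked 167, 53 and 501. That of ImpL2, which encodes a secreted protein that binds insulin-like peptides, had a signal of 582 and ranked 99, 143 and 308. In these 3 genes replicate 3 gave the poorest rank. The remaining 3 of the 12 with a peak in all replicates were on arm 2R, in CG12769 with signal 690, and in babos and CG46321, both with signal 656. The CG46321 peak also lies in the span of Hr3, a nuclear receptor of the ecdysone cascade.

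The peak in Lrch, with a signal of 592 at chr2L:17378731-17378982, was the only one of the 12 with no overlapping peak in one replicate. It ranked 386 and 27 in replicates 1 and 3 and overlapped no peak of replicate 2. The nearest replicate 2 summit lay 193 bp away, under a second deep intronic peak of Lrch with signal 369, where replicate 2 had rank 274. The same replicate 3 peak of signal 367 overlapped both, so the values of close neighbours are not separate measurements. In all, 16, 16 and 22 deep intronic peaks shared their matching peak in replicates 1, 2 and 3 with another one.

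**Figure D1:**
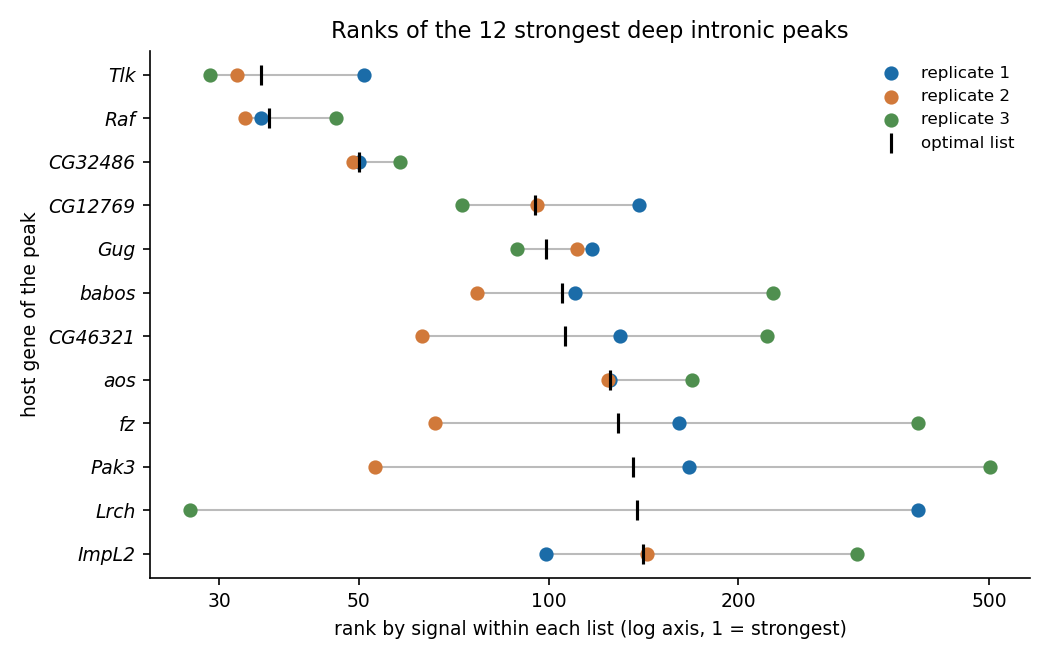
Rank by signal of the 12 strongest deep intronic peaks in each replicate's list (coloured points) and in the optimal list (black bars), on a log axis where 1 is the strongest. The Tlk, Raf and CG32486 points lie between 29 and 58, whereas the Pak3 points run from 53 to 501, and Lrch has no replicate 2 point.

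Deep intronic peaks were of lower signal than peaks nearer to promoters. Signal at the 752 sites was between 93.3 and 1085, the median being 139.1, against medians of 159.4 for the 529 near intronic peaks (in introns, over 500 and up to 2000 bp from a TSS), 140.2 for the 305 distal intergenic peaks (over 2000 bp from a TSS, in no gene) and 165.4 for the 1779 TSS-proximal peaks (within 500 bp). By construction 50% of all optimal peaks lie above the list's median signal. Of the deep intronic peaks 322 did, or 42.8% (exact 95% interval, 39.3 to 46.4). That share was below the 51.4% of near intronic peaks, and the odds ratio was 0.708 (0.562 to 0.890; adjusted p = 0.00385 in a two-sided Fisher's exact test, over 6 tests). It was also below the 54.7% of TSS-proximal peaks, with an odds ratio of 0.620 (0.520 to 0.739, exact adjusted p = 3.09e-07). Against the 42.3% of distal intergenic peaks the odds ratio was 1.02 (0.774 to 1.35, exact adjusted p = 0.891), and no difference was detected. Both calls also held with the signal that each replicate gave the same peaks.

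Deep intronic peaks were recovered unevenly by the replicates. Each replicate's top list was set to its 3646 strongest peaks, and recovery meant an overlap of at least 1 bp. Replicates 1 and 2 recovered 84.3% and 84.7% of the deep intronic peaks, and replicate 3 recovered 65.0% (mean 78.0% ± 11.2, SD, n = 3). For TSS-proximal peaks the shares were 88.1%, 76.6% and 81.1% (81.9% ± 5.80). Replicate 3 was thus the lowest of the 3 for deep intronic sites and replicate 2 the lowest for promoters. Replicate 3 was also the lowest for near intronic peaks, at 72.2%, and for distal intergenic peaks, at 56.1%. The uneven recovery was thus not particular to deep intronic peaks. The top lists of replicates 1, 2 and 3 themselves were 20.0%, 23.5% and 17.3% deep intronic, and 49.3%, 40.6% and 56.4% TSS-proximal. All 3 top lists recovered 382 deep intronic peaks, or 50.8% (47.2 to 54.4), 2 lists 248, 1 list 118 and none 4. Over all optimal peaks, 57.0% were recovered in all 3. The optimal list was made from the same 3 replicates, so recovery describes how evenly they carry a peak and is no independent check of it.

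The share recovered in all 3 was lower than the 59.9% of near intronic peaks, and the odds ratio was 0.690 (0.548 to 0.870, exact adjusted p = 0.00282). It was lower than the 60.4% of TSS-proximal peaks, with an odds ratio of 0.676 (0.567 to 0.806, exact adjusted p = 2.60e-05). Against the 47.9% of distal intergenic peaks the odds ratio was 1.12 (0.854 to 1.48, exact adjusted p = 0.498). Without replicate 3 the odds ratios were 0.820 against near intronic peaks and 1.16 against TSS-proximal peaks, both with an exact adjusted p = 0.188. With top lists of 10000 peaks the odds ratios were 0.765 against near intronic peaks (exact adjusted p = 0.226) and 1.41 against TSS-proximal peaks (exact adjusted p = 0.0152), and with only the strongest site of each gene, which by construction keeps stronger sites, the odds ratios were 1.01 and 0.993 (both with an exact adjusted p = 1.00). Neither difference was thus called in the same direction without replicate 3, with the longer lists or with 1 site per gene.

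**Figure D2:**
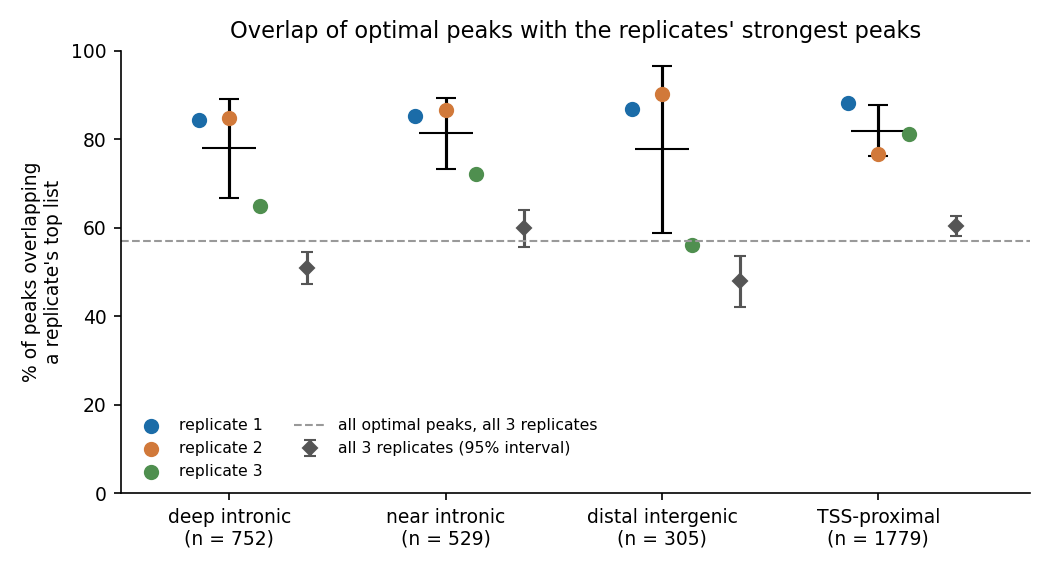
Share of the optimal peaks of 4 classes that overlap each replicate's 3646 strongest peaks (coloured points, with the mean as a bar and ± 1 SD over 3 replicates) and that overlap all 3 (grey diamonds, exact 95% interval). The replicate 3 points are at 65.0% for deep intronic and 56.1% for distal intergenic peaks, the lowest of each class, and the dashed line marks the 57.0% of all optimal peaks in all 3.

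Nearly all deep intronic peaks had some counterpart in each relaxed list. An overlapping peak was listed in replicate 1 for 746 of the 752, in replicate 2 for 727 and in replicate 3 for 748, with median ranks of 2054, 1832 and 2528. The optimal list was made from these replicates. Neither these counts nor those of unmatched sites below are given for all optimal peaks. They are thus not read as a trait of deep intronic peaks. Over the sites matched in both lists, the Spearman correlation of signal was 0.769 between replicates 1 and 2 (725 sites), 0.511 between 1 and 3 (742 sites) and 0.481 between 2 and 3 (723 sites). These describe sites of the same libraries and are not tested. There were 8 deep intronic peaks that ranked within 1000 in one replicate and overlapped no peak in another. All 8 were high in replicate 3 and unmatched in replicate 2, and 4 of them were also unmatched in replicate 1. One example, chosen after its values were seen, is a peak of signal 128 in intron 3 of Eip75B at chr3L:18029604-18029987, which ranked 436 in replicate 3 and was unmatched in the other two. Another, in the first intron of caps, had a signal of 113 and ranked 486 in replicate 3 alone.

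The median host gene of the sites was 37919 bp long and the median host intron 17330 bp. Windows tiled over all eligible sequence lay in longer ones, with medians of 58416 and 20055 bp, and the weak peaks described below had medians of 45943 and 16292 bp. The summit of a site was a median of 5075 bp from the nearest TSS (range 2009 to 49819) and 2754 bp from the nearest exon. In 64.0% of cases the nearest TSS belonged to the host gene itself. Protein-coding genes hosted 734 of the sites and non-coding RNA genes 18. At the limit of the rule, the peaks just inside it were in CG13917 at 2009 bp with signal 118, hiw at 2016 bp with signal 325 and Rgl at 2017 bp with signal 102. Those just outside were in lncRNA:CR44320 at 1992 bp with signal 292, Lerp at 1991 bp with signal 123 and CG1677 at 1988 bp with signal 141.

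Within that space, deep intronic peaks thinned out with distance. There were 28.0 per Mb of eligible sequence from 2 to 5 kb from a TSS (367 peaks), 21.2 from 5 to 10 kb (235 peaks), 12.6 from 10 to 20 kb (108 peaks) and 4.86 beyond 20 kb (42 peaks). The 4510 weak deep intronic peaks, which meet the same positional rule but are in the pooled relaxed list and not in the optimal list, were at 139, 119, 110 and 48.5 per Mb over the same bins. The pooled list is labelled as peaks and background, so some weak peaks may be background rather than weakly bound sites. All comparisons with weak peaks carry this limit. The median signal of the optimal sites changed little, at 141, 139, 134 and 159. These values are given with no test.

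The first intron held 332 of the 752 sites, or 44.1%, against 33.1% of the weak peaks (odds ratio 1.59, 1.36 to 1.87, adjusted p = 8.94e-09 in Fisher's exact test over 2 tests). The second intron held 32.3%. In windows tiled over all eligible sequence, the first intron made up 26.3%. Since first introns lie nearer to promoters, the comparison was repeated within bins of TSS distance, an alternative chosen after seeing the data, and the pooled odds ratio was 1.47 (exact stratified test, p = 2.75e-06). First intron shares of sites and weak peaks were 52.3% and 42.2% from 2 to 5 kb, and 43.8% and 33.2% from 5 to 10 kb. From 10 to 20 kb they were alike, at 25.9% and 25.8%, and beyond 20 kb they were 21.4% and 10.3%. Deep intronic peaks also sat close to other peaks: 35.8% had another pooled summit within 1000 bp, against 25.4% of weak peaks (odds ratio 1.63, 1.38 to 1.93, exact adjusted p = 8.94e-09). Within 500 bp the odds ratio was 1.23 (exact adjusted p = 0.119). The closeness comparison was not repeated within bins of TSS distance, although the sites lay a median of 5075 bp from a TSS and weak peaks 6284.5 bp.

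Chained at gaps of up to 5000 bp, 241 sites fell into 103 groups of 2 or more and 511 stood alone. The largest group was 6 peaks over 8862 bp in Raf, with signals from 122 to 1079, and all 6 were recovered in every replicate. Groups of 4 were found in msn, plh, cv-c, tara, Dad and Hr4. Those of msn, a MAP4K kinase of the JNK pathway, had signals from 104 to 174. By arm, the sites numbered 187 on X, 173 on 3R, 140 on 3L, 131 on 2L and 121 on 2R, and none was on chromosome 4. Per Mb of eligible sequence X had 23.4, 2L 20.1, 3L 17.3, 2R 17.0 and 3R 15.4, while the weak peaks were least dense on X among these arms, at 95.2 per Mb. The eligible sequence of chromosome 4 is short, at 0.445 Mb, and the weak peaks were sparse there too. They numbered 3, or 6.74 per Mb, against 109 per Mb over all arms, where the sites were at 18.2. The cause was not tested. Within 100 bp of an annotated transposable element were 6 sites, or 0.798%, and 0.421% of the weak peaks, against 9.46% of tiled windows. The low share was thus not particular to the sites.

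A limited set of genes carried the sites. Of the 4216 protein-coding genes with any sequence that meets the rule, 450 (10.7%) had at least 1 site in their span, and 284 of these had only 1. The share rose with the amount of such sequence. It was 0.407% of the 2211 genes with up to 2000 bp and 13.0% of those with 2000 to 10000 bp. It was 29.5% of those with 10000 to 50000 bp and 42.9% of those with more. Density went the other way in the longest genes, with 0.946, 3.19, 2.27 and 0.971 sites per 100 kb in the same order.

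The gene with the most sites was kirre, with 10 in its span of 394149 bp on X, chrX:2740384-3134532. It encodes an immunoglobulin-superfamily protein that guides myoblast fusion. The strongest, in intron 5 at chrX:3097100-3097339, had a signal of 563 and ranks of 146, 127 and 299, and 8 of the 10 were recovered in all replicates. Raf had 7 in 48405 bp, all in intron 2 and all recovered in every replicate, which is 28.6 per 100 kb of its eligible sequence. The weakest of them had a signal of 122 and ranks of 3560, 2284 and 3627, at the edge of the top lists. Hr4, a nuclear receptor of the ecdysone cascade, also had 7, with 3 of signal 523, 467 and 438 in introns 2 and 3. The 438 peak was at chrX:1963824-1964041 and ranked 292, 227 and 332.

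Among the 14 genes with 5 or more sites, several encode nuclear proteins. The share of such genes among all host genes was not counted, so this is not read as a trait of the 14. The corepressor gene sbb had 8, the zinc finger gene jing 7, shn 6, ush 6 and apt 5, and CG1677 and tara had 5 each, as did Eip75B, hth, cv-c and CG12535. In jing, which acts in tracheal and glial development, the signals ran from 94.6 to 183, and 3 of 7 were recovered in all replicates. In shn, whose product acts with the Smads of Dpp signalling, the strongest had a signal of 451 and ranks of 246, 198 and 427, and 5 of 6 were recovered in all replicates. In ush, a cofactor of GATA proteins, the strongest had a signal of 299 and ranks of 714, 632 and 504, while a second of signal 270 ranked 1492, 2922 and 159. The second ush peak was thus far stronger in replicate 3 than in replicates 1 and 2.

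Pointed peaks also lay in its own gene. Both optimal peaks within pnt, a gene of 55937 bp at chr3R:23290231-23346167 on the minus strand, were deep intronic, and no optimal peak lay at its annotated starts. The stronger was in intron 3 at chr3R:23326414-23326595, 7284 bp from the nearest TSS, with a signal of 373. It had signals of 134, 111 and 113 and ranks of 381, 519 and 437 in replicates 1, 2 and 3, so the replicates were close. The weaker, in intron 6 at chr3R:23300676-23301059, had a signal of 100 and ranks of 4703, 1951 and 11036, and was in the top list of replicate 2 alone. The labels do not say which intron holds the eGFP exon.

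**Figure D3:**
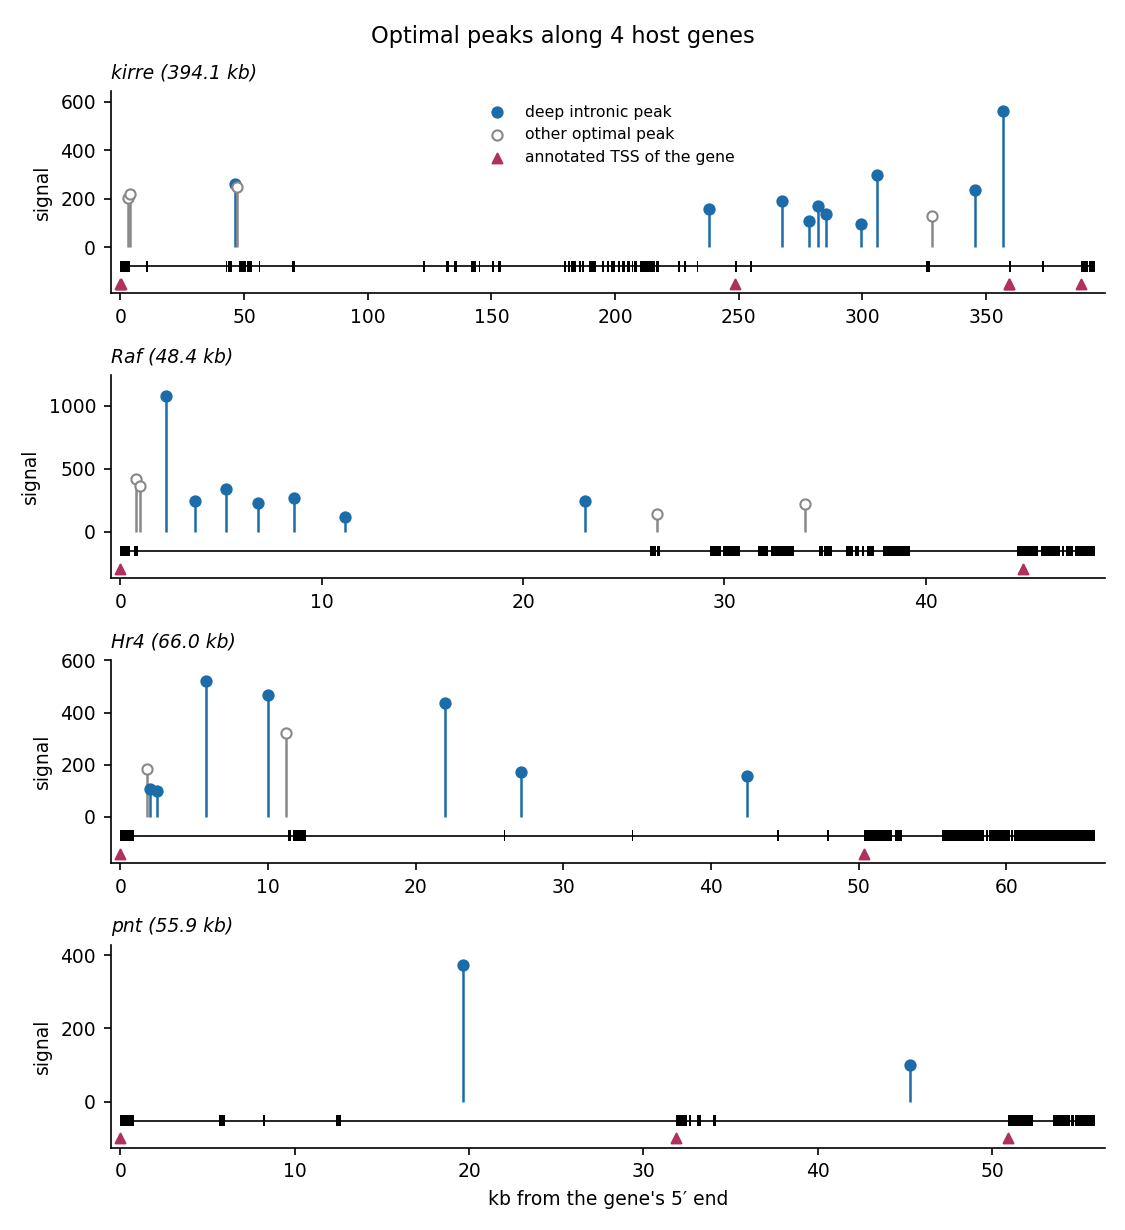
Optimal peaks along kirre, Raf, Hr4 and pnt, as signal against distance in kb from the gene's 5′ end. Filled blue points are deep intronic peaks and open grey points other optimal peaks. Black boxes mark exons of any gene and triangles the gene's own TSSs, while TSSs of other genes in the span are not drawn. The 7 blue points of Raf lie between 2.27 and 23.07 kb, and pnt shows 2 points at 19.65 and 45.30 kb.

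Genes of the pathway that ends in Pointed held sites more densely than genes at large, as did several other lists of signalling and transcription factor genes given below. The lists of genes were drawn up with earlier results of these data known, so their counts are given as descriptions with no test, beside 10.7% of genes and 1.82 sites per 100 kb over all protein-coding genes. The median eligible sequence per gene was 2.21 to 38.4 kb in the lists, against 1.64 kb over all protein-coding genes. Since the share hosting a site rose with that length, the shares of genes are not like for like. Density also varied with it, between 0.946 and 3.19 per 100 kb over the length ranges above. The densities set against 1.82 are thus not like for like either. Of the EGFR ligands, receptor and feedback genes, 6 of the 10 with eligible sequence hosted 9 sites, at 9.22 per 100 kb. The ligand gene vn held 1 of signal 190 in its first intron, with ranks of 1644, 2463 and 708. Star (S), whose product escorts Spitz to its protease, held 4 in its first intron, the strongest of signal 333 with ranks of 1201, 1570 and 114. The inhibitor aos held the single strong site given above. Egfr, named after its values were seen, held 1 of signal 124 in its first intron, with ranks of 2323, 2090 and 3987. The other 4 genes with eligible sequence, among them the ligand gene Krn and the feedback inhibitor gene sty, held none.

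In the Ras-MAPK cascade only Raf and Ptp61F, a tyrosine phosphatase gene, of 9 genes hosted sites. They had 11 between them, at 7.13 per 100 kb and with a median signal of 248, and 10 were recovered in all replicates. Raf held 7 of the 11 and Ptp61F 4, so this density rests on 2 genes. The Rolled gene rl held none in 44.9 kb of eligible sequence. The strongest in Ptp61F had a signal of 289 and ranks of 758, 321 and 1670. Its intron 3 is 126467 bp long and holds whole genes. One of its sites lies in the first intron of ru, a protease gene of the EGFR list, and counts in both. Of the ETS factors 3 of 6 hosted sites. The gene for the competing repressor Yan, aop, had 2 in its first intron. The stronger, at chr2L:2163556-2163777, had a signal of 417 and ranks of 291, 207 and 676. The other 2 were pnt and Eip74EF, an ecdysone-induced ETS gene with 1 site of signal 116.

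Of 9 FGF and PVR signalling genes 4 hosted 7 sites, at 4.47 per 100 kb. Pvf3, a ligand of the PDGF/VEGF receptor Pvr, had 4, the strongest of signal 338 with ranks of 451, 355 and 1081. The FGF ligand gene ths had 1 of signal 145, and bnl, the FGF ligand of the trachea, 1 that ranked 4820 and 2275 in replicates 1 and 3 and overlapped no peak of replicate 2. In the Notch, Wg, Dpp, Hh and Hippo list 13 of 30 genes hosted 32 sites, at 6.06 per 100 kb. Besides fz and shn, the Notch receptor gene N had 1 in intron 5 at chrX:3162383-3162682, of signal 465 and with ranks of 331, 174 and 303.

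Nuclear receptor and developmental transcription factor genes hosted sites in 6 of 13 and 15 of 31 cases, at 6.58 and 4.04 per 100 kb. Hr3, Hr4 and Eip75B led the first list, with strongest signals of 656, 523 and 241. In the second, rib, which acts in tracheal and salivary gland morphogenesis, had 1 of signal 384 with close ranks of 403, 421 and 443. The epidermal factor gene grh had 1 of signal 338 with ranks of 395, 362 and 937. Genes of axon guidance and cell adhesion hosted sites in 11 of 30 cases but at 1.98 per 100 kb, close to all genes. The genes kirre, Ten-a, which encodes a teneurin, and Fas3, which encodes a homophilic adhesion protein, led that list with signals of 563, 307 and 273. Neuronal channel and synapse genes, which have 566.9 kb of eligible sequence, held 3 sites in 2 of 17 genes, at 0.529 per 100 kb. These were in dnc, a cAMP phosphodiesterase gene, with a strongest signal of 249, and in rut, an adenylyl cyclase gene, with one of 95.4 in no top list.

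**Figure D4:**
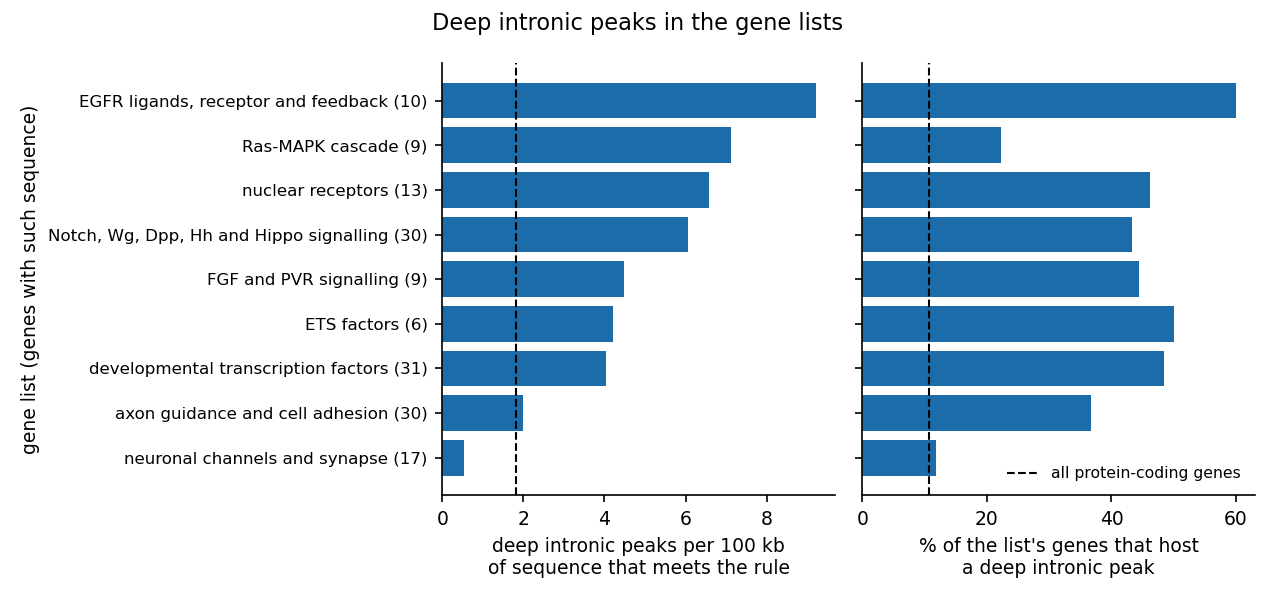
Deep intronic peaks per 100 kb of eligible sequence (left bars) and share of genes hosting at least 1 (right bars) for 9 gene lists, with the number of genes that have such sequence in parentheses. Dashed lines mark 1.82 per 100 kb and 10.7% over all protein-coding genes. Bars for EGFR genes reach 9.22 and 60.0%, and those for neuronal channel genes 0.529 and 11.8%. The median eligible sequence per gene is 2.21 to 38.4 kb in the lists and 1.64 kb over all protein-coding genes, and both measures vary with it.

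Host genes also had peaks at their starts more often than other genes. An optimal summit lay within 500 bp of one of the gene's own TSSs for 140 of the 450 host genes, or 31.1% (26.9 to 35.6), and for 739 of the 3766 genes that could have hosted a site but did not, or 19.6% (18.4 to 20.9). Among genes with 10000 to 50000 bp of eligible sequence the shares were 32.1% (26.2 to 38.4) and 13.8% (11.0 to 16.9). Host genes had a median of 2 annotated TSSs and the others 1, although both had 2 in that length range. This comparison was made after seeing the data and is given with no test. The remaining 310 host genes had deep intronic sites and no optimal peak at an annotated start.

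Deep intronic peaks had a narrow AT-rich centre. GC content was 34.1% within 50 bp of the summit and 40.5% at 500 to 1000 bp, a difference of -6.36 points, and it was lower at the centre in 79.5% of the sites. It passed through 45.5% about 212.5 bp downstream on the plus strand before falling to the flank. Near intronic and distal intergenic peaks differed by -7.10 and -5.71 points, TSS-proximal peaks by -8.38. Weak deep intronic peaks had a shallower dip, from 44.0% about 212.5 bp upstream to 42.2% at the summit, and their centre, at 42.3%, was not below the flank at 41.2%. The profile was noticed in the data and is not tested.

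**Figure D5:**
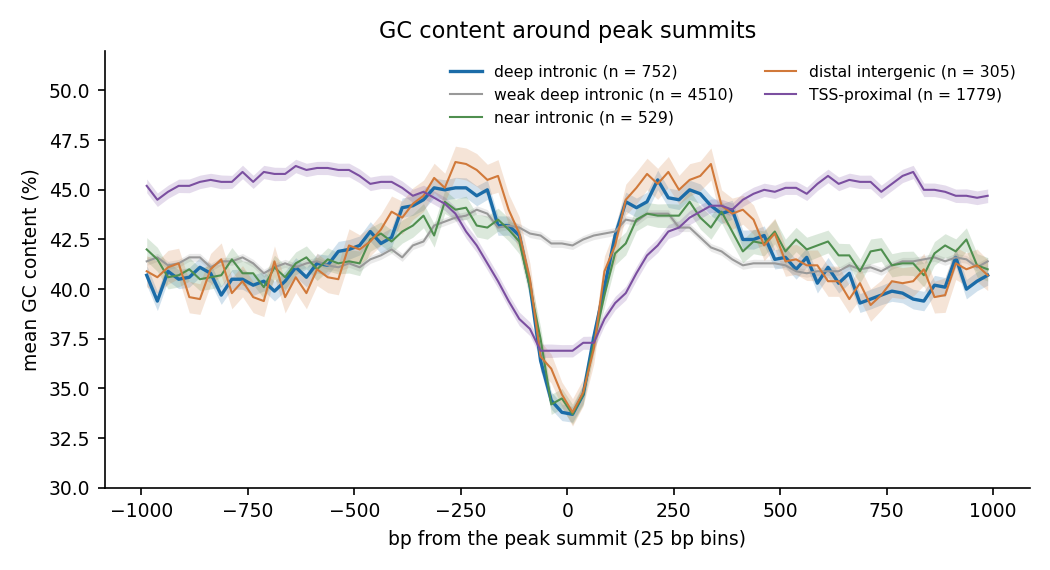
Mean GC content in 25 bp bins against distance from the summit for deep intronic peaks and 4 other sets, with shading of ± 1 standard error over peaks. The vertical axis starts at 30%. The blue deep intronic line falls to 33.7% at the summit with shoulders near 45.5%, while the grey line of weak deep intronic peaks falls only from 44.0% to 42.2%.

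Base composition bears on the search for sequence patterns. Windows of 201 bp centred on the summit had a mean GC content of 36.4% ± 5.59 (SD over peaks) at deep intronic peaks, 42.5% ± 7.72 at weak ones and 37.4% ± 6.50 at TSS-proximal ones. Both strands were searched for 19 patterns, and 10 of 38 tests (26.3%) passed an adjusted p of 0.05. Against weak peaks, ETS sites were rarer at deep intronic peaks: CCGGAA was in 2.39% against 5.08% of windows (odds ratio 0.458, 0.265 to 0.747, exact adjusted p = 0.00707) and CAGGAA in 5.98% against 9.60% (0.599, 0.426 to 0.825, adjusted p = 0.00745). Their reversed letters, AAGGCC and AAGGAC, which serve as controls of equal composition, were rarer too, with odds ratios of 0.526 (exact adjusted p = 0.0104) and 0.367 (adjusted p = 9.84e-06).

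Within 5 bins of window GC, an adjustment chosen after seeing the data, the odds ratios of CCGGAA and CAGGAA were 0.649 and 0.712 (exact stratified test, adjusted p = 0.279 and 0.138), and only AAGGAC of the 7 calls against weak peaks passed, at 0.507 (adjusted p = 0.0286). The GATA factor pattern AGATAA, in 14.6% against 11.2% of windows (odds ratio 1.36, exact adjusted p = 0.0279), had an odds ratio of 0.971 (adjusted p = 0.975) within the bins. Windows of the E-box CAGCTG and of the Scalloped pattern GGAATG were rarer, with odds ratios of 0.654 and 0.657, which were 0.867 and 0.808 within the bins. In tiled eligible sequence CCGGAA was in 4.80% and CAGGAA in 9.60% of windows.

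Against TSS-proximal peaks, whose windows have a similar GC content, 3 patterns differed. The DNA replication-related element ATCGATA, known from core promoters, was in 1.46% of deep intronic and 13.0% of TSS-proximal windows, giving an odds ratio of 0.0995 (0.0487 to 0.183, exact adjusted p = 2.84e-23). It was in 1.32% of near intronic, 0.984% of distal intergenic and 1.69% of weak deep intronic windows, so its low share was not particular to the sites. The E-box CAGCTG was in 5.98% against 12%, with an odds ratio of 0.465 (0.326 to 0.653, exact adjusted p = 2.47e-05). Near intronic, distal intergenic and weak deep intronic windows held it in 8.32%, 4.59% and 8.87%. The repeat CACACA was in 18.9% against 14.6%, with an odds ratio of 1.37 (1.08 to 1.72, exact adjusted p = 0.0279). In the same 3 sets its shares were 20.8%, 10.8% and 21.3%. All 3 calls held within the GC bins, at 0.102, 0.479 and 1.42 (exact stratified test, adjusted p = 1.65e-22, 1.39e-04 and 0.0286). The CACACA call was lost in 4 of its 7 alternatives and the ATCGATA call in none of 7. Neither ETS pattern passed against TSS-proximal peaks, with odds ratios of 0.590 (0.329 to 1.01, exact adjusted p = 0.115) for CCGGAA and 1.03 (0.698 to 1.49, adjusted p = 0.933) for CAGGAA.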

How the data were processed

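Peak lists on build dm6 were analysed for 3 biological replicates of 1 group. The signal of each peak is the value the authors deposited, and its scale is not stated. For the peak caller, and for the threshold of the irreproducible discovery rate procedure behind the optimal list, nothing is given in the sources used here. The optimal list of 3646 peaks is the strongest part of a pooled relaxed list of 23148, which is labelled as peaks and background. Each replicate list holds about 30000. In 86.2% of the deep intronic peaks the summit is the midpoint of the peak, and 86.0% are 384 bp wide, so positions are coarse. Lists on the other build were not used.

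Genes, exons and start sites came from Ensembl release 115 (annotation version 6.54) and sequence from the RefSeq genome of the same assembly. Coordinates are 1-based. A summit was assigned to the gene spanning it, with transposable elements left out. Shares carry exact Clopper-Pearson 95% intervals, which cover counting error only. Classes were compared with two-sided Fisher's exact tests over peaks, adjusted by Benjamini-Hochberg within families of 6, 2 and 38 tests, and within strata by an exact conditional test of a common odds ratio (Python 3.11.15, SciPy 1.17.1, statsmodels 0.14.6). Peaks of 1 gene are not independent, and these p-values describe the listed peaks, not a spread over replicates. The scripts were tested on simulated data. The peak classes, gene lists and patterns were chosen with earlier results of these data known. Named are the 12 strongest sites, the 10 genes with most sites, which were 14 with the ties at 5 sites, and pnt. Also named are the 3 genes with the strongest sites of each list and the peaks nearest the distance limit. Other genes named, apart from those of the printed sequences, were chosen after their values were seen. Of the listed genes, 2 symbols are not in the annotation. The sequence of 1 site and the counts of 1 gene list are not reported here. Alternatives tried are other distance limits, windows, list sizes, replicates left out and 1 peak per gene.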

Additional observations from a re-analysis of the deposited data

How the results depend on the processing

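The direction and call of both signal differences, of the first intron share and of the DRE pattern against TSS-proximal peaks were kept under every alternative run. Sites numbered 385 beyond 5000 bp from a TSS and 322 above the median rank of the optimal list, with 257 and 231 host genes. The 50.8% share in all 3 top lists was 27.9% with lists of 2000 peaks, 87.8% with lists of 10000, 47.0% beyond 5000 bp, 60.3% for the strongest site of each gene, and 53.9% to 75.5% with 1 replicate left out. Recovery odds ratios without 1 replicate were 0.687 to 0.820 against near intronic, 0.740 to 1.25 against distal intergenic and 0.518 to 1.16 against TSS-proximal peaks. With lists of 10000 they were 0.765 (exact adjusted p = 0.226) against near intronic and 1.41 against TSS-proximal peaks. With the strongest site of each gene, which by construction keeps stronger sites, they were 1.01, 1.65 (exact adjusted p = 0.00604) and 0.993 against near intronic, distal intergenic and TSS-proximal peaks. Clustering within 500 bp gave 1.23. Against weak peaks 7 of the 19 patterns were called, and the number was 2 with 50 bp on either side, 3 beyond 5000 bp and 1 within GC bins, where the GATA factor odds ratio was 0.971. Against TSS-proximal peaks 3 of the 19 patterns were called, and the number was 1 with 50 bp, 6 with 200 bp and 5 at peak midpoints. Apart from the GC bins, the cause was not tested. The GC bins and the bins of TSS distance were chosen after seeing the data. No paired analysis was possible because the labels give 1 group. Read depth is unknown, so the precision of a single peak's signal cannot be given.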
